A study of Oryctolagus cuniculus with 6 samples.

Results

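Cathepsins are the peptidases of the lysosome, the acidic compartment in which cells break down proteins. Most of them are cysteine peptidases made as inactive precursors, carried to the lysosome by mannose 6-phosphate receptors and activated by cleavage in the acid interior. Some are also secreted and cut collagen, elastin and other matrix proteins outside the cell, where cystatins hold them in check. In humans, cathepsins L and V are close relatives, cathepsin L widely expressed and cathepsin V in a narrow range of tissues that includes the cornea.

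Primary limbal stem cells (LSCs), grown from explants of the rabbit limbus, had been profiled by RNA-seq, and their transcripts were examined for 10 cathepsins, chosen by name as members of this family and not by a threshold on a measured value. The family was proposed when results of the comparison between the groups were already known, so fold changes and adjusted p values of its members are given as a description and support nothing beyond themselves. Of the 10 genes, CTSA, CTSB, CTSC, CTSH, CTSK, CTSS, CTSV and CTSZ had a row in the count table of 22190 genes, and all 8 passed the filter on low counts that left 15029 genes. CTSD and CTSL had no row under these symbols and were not analysed here. No row of the table was described as cathepsin D or cathepsin L, and the other rows described as a cathepsin were CTSE, CTSF and CTSO. The gene named CTSV in the table is listed as LOC100008830, without a symbol, in the RefSeq table of the assembly mOryCun1.1, whereas the other 7 genes carry the same symbol there. Whether this rabbit gene is the counterpart of human CTSV or of human CTSL was not settled with the sources used here, and every value given for CTSV is that of this row.

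The fresh group consisted of 3 libraries from explants of fresh rabbit corneas. The preconditioned group consisted of 3 libraries from corneas that had been held in liquid nitrogen for 7 days in a cryomedium of culture medium, serum and dimethyl sulfoxide with 10 ng/mL of the inflammatory cytokine IL-1β. The explants of both groups were cultured with the epithelium upward in keratinocyte medium. Since IL-1β was always given with freezing, their effects cannot be told apart, and the strain, age and number of the donor animals are not given in the sources used here.

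The libraries held 31952352 to 34327534 counts on genes. On the first principal component of all tested genes, the fresh libraries lay between −53.1 and −41.1, whereas preconditioned replicates 1, 2 and 3 lay at 8.13, 58.3 and 70.4. The cells carried epithelial transcripts in every library, with KRT5, a keratin of basal cells, at 7337 to 11740 CPM (counts scaled to a common library size with edgeR's TMM factors). TP63, the limbal progenitor factor, lay at 226 to 246 CPM in fresh and 112 to 184 CPM in preconditioned libraries (log2 fold change −0.77, adjusted p = 0.059). KRT3, the keratin of differentiated cornea, varied from 239 to 2655 CPM over the 6 libraries, and KRT12 and KRT14 had no row. Markers of other cell types were detected as well. The 11 stromal fibroblast markers summed to 546 to 1175 CPM in fresh and 1316 to 2359 CPM in preconditioned libraries, and the 11 macrophage and leukocyte markers to 171 to 201 and 194 to 445 CPM. These sums rested largely on few genes and do not measure the number of such cells. COL1A1 had means of 91.3 CPM in fresh and 578 CPM in preconditioned libraries, and VIM 357 and 479 CPM. Of the leukocyte markers, CD68 had means of 107 and 236 CPM, LAPTM5 61.9 and 50.8 CPM and PTPRC 0.339 and 0.691 CPM. In bulk samples such as these, fewer cells of a type and less RNA per cell cannot be told apart.

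CTSV was by far the most abundant cathepsin transcript, and its level was higher in the preconditioned group. It had 2401, 2247 and 2924 CPM in fresh replicates 1, 2 and 3, and 4358, 7306 and 4378 CPM in preconditioned replicates 1, 2 and 3. The lowest preconditioned library was thus above the highest fresh library, and preconditioned replicate 2 stood above both of its companions. The summed fibroblast and leukocyte markers were also highest in preconditioned replicate 2, and their part in the level of CTSV was not tested. The mean of 2524 ± 355 CPM among fresh libraries compared with 5347 ± 1696 CPM among preconditioned libraries (SD, n = 3 each), a 2.12-fold difference (log2 fold change 1.08, standard error 0.23, 95% interval 0.53 to 1.63; adjusted p = 0.048, quasi-likelihood test of edgeR with Benjamini-Hochberg adjustment over all tested genes, used throughout). A gene was called where its adjusted p was 0.05 or less and its log2 fold change was 1 or more in either direction, and CTSV was the only cathepsin called, which makes 1 of 8 beside 2.29% of all tested genes. CTSV was close to both limits of this rule. The call was lost without fresh replicate 1, 2 or 3 and without preconditioned replicate 2 or 3, with log2 fold changes of 0.79 to 1.21 over the 6 omissions and adjusted p values of 0.017 to 0.17, and was kept only when preconditioned replicate 1 was left out. A fit blocked on replicate number gave a log2 fold change of 1.05 and an adjusted p of 0.11. The call was also lost with library size alone as the scaling (log2 fold change 0.91, adjusted p = 0.047 by edgeR) and in limma fits on FPKM (log2 fold change 0.88, adjusted p = 0.070 and 0.066 with pseudocounts of 1 and 0.1). DESeq2, which called 7.78% of its tested genes, also called CTSV alone among the cathepsins (log2 fold change 1.08, adjusted p = 0.000597, with 0.000597 to 0.17 over all alternatives).

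**Figure D1:**
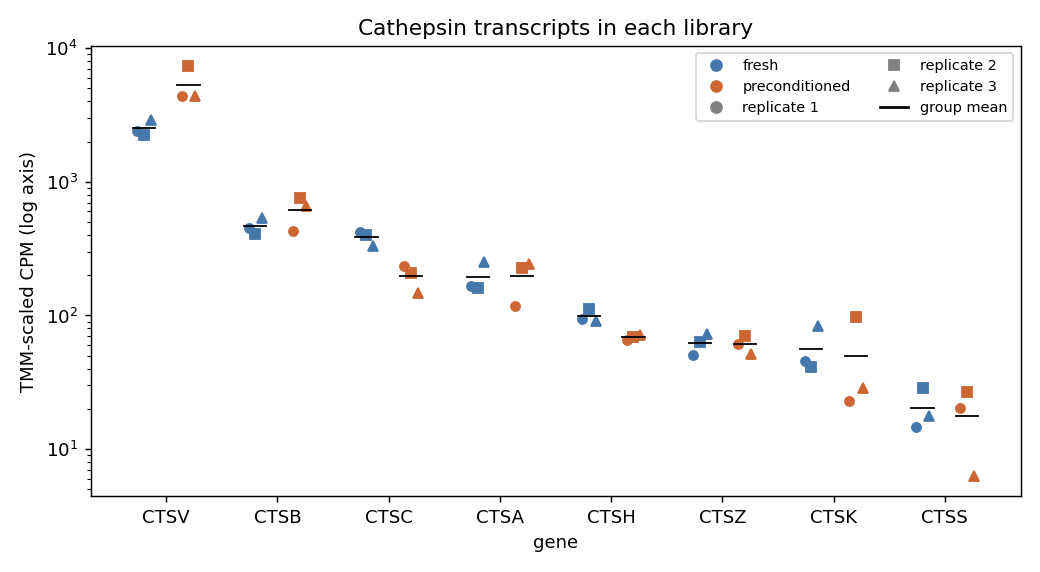
Expression of the 8 cathepsins in each of the 6 libraries, as TMM-scaled CPM on a log axis, with a horizontal bar at the mean of each group of 3 libraries. The groups do not overlap for CTSV, higher in the preconditioned group, and for CTSC and CTSH, lower in the preconditioned group.

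Levels of different genes were compared per length, on the deposited FPKM values. In the fresh group CTSV reached 1812 ± 262 FPKM (SD, n = 3), followed by CTSB at 240 ± 35.1, CTSC at 147 ± 18.2, CTSA at 109 ± 28.7, CTSH at 83.9 ± 9.41, CTSZ at 47.7 ± 8.55, CTSK at 31.4 ± 13.0 and CTSS at 14.5 ± 5.24 FPKM (SD, n = 3 each). The steps from CTSV to CTSB and from CTSB to CTSC were larger than the spread of the libraries. The libraries of CTSC and CTSA overlapped (126 to 161 against 90.8 to 142 FPKM), and so did those of CTSA and CTSH, and of CTSZ and CTSK. In the preconditioned group CTSV stood at 3393 ± 973 and CTSB at 281 ± 71.0 FPKM (SD, n = 3 each). CTSA, at 97.5 ± 32.5 FPKM, then stood above CTSC, at 66.6 ± 15.6 FPKM (SD, n = 3 each), although their libraries overlapped. CTSH kept a narrow range of 50.1 to 54.1 FPKM, while CTSK ranged from 11.7 to 46.9 and CTSS from 4.02 to 16.3 FPKM. Among all 22190 rows ranked by FPKM within a library, CTSV held ranks 33, 34 and 21 in the fresh libraries and 15, 9 and 15 in the preconditioned libraries. The transcript of this endopeptidase therefore ranked among the 34 most abundant per length in every library. CTSS, at the other end, held ranks between 3583 and 7855.

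Because CTSV was so abundant, it set the total of the family. The 8 genes took 0.367% to 0.459% of all counts in the fresh libraries and 0.512% to 0.800% in the preconditioned libraries. Their summed level was 3804 ± 444 CPM in fresh and 6551 ± 1915 CPM in preconditioned libraries (SD, n = 3 each), a ratio of 1.72. Without CTSV the sum was 1280 ± 89.0 and 1204 ± 251 CPM (SD, n = 3 each), a ratio of 0.941, and the libraries overlapped. CTSV made up 71.6% to 74.1% of the summed FPKM of the family in the fresh libraries and 82.7% to 87.0% in the preconditioned libraries.

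CTSC and CTSH, a pair of cysteine exopeptidases, were lower in the preconditioned group. CTSC, also known as dipeptidyl peptidase I, removes dipeptides and activates the serine proteases of leukocyte granules. It had 423, 399 and 328 CPM in fresh replicates 1, 2 and 3 and 234, 207 and 147 CPM in preconditioned replicates 1, 2 and 3. Every preconditioned library lay below every fresh library, and the gap between the nearest libraries was from 234 to 328 CPM. The log2 fold change was −0.97 (standard error 0.19, 95% interval −1.42 to −0.51, adjusted p = 0.042 by edgeR), which is 1.96-fold lower and just short of the fold cutoff. CTSC met both cutoffs when counts were scaled by library size alone (−1.14, adjusted p = 0.030), without preconditioned replicate 1 (−1.13, adjusted p = 0.011) and in limma fits on FPKM. Its adjusted p was above 0.05 in the blocked fit (0.072) and in the other 5 omissions of a single library (0.083 to 0.15), and as low as 0.000622 with DESeq2.

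CTSH acts mainly as an aminopeptidase, and its transcript showed the smallest spread between libraries of the 8 genes. It had 94.7, 112 and 91.7 CPM in fresh replicates 1, 2 and 3 and 65.4, 69.0 and 71.6 CPM in preconditioned replicates 1, 2 and 3. The preconditioned libraries were thus tightly grouped below the lowest fresh library. The level was 1.45-fold lower (log2 fold change −0.54, standard error 0.12, 95% interval −0.81 to −0.27, adjusted p = 0.047 by edgeR). At an adjusted p of 0.05 or less without a fold cutoff, CTSV, CTSC and CTSH passed, 3 of 8 cathepsins beside 5.08% of all tested genes. The libraries of the groups did not overlap for these same 3 genes, 37.5% of the 8, beside 36.7% of all tested genes, so the share without overlap was near that of any gene. The adjusted p of CTSH was above 0.05 in the blocked fit (0.11) and in all omissions of a single library but that of preconditioned replicate 1 (0.10 to 0.16), and as low as 0.0081 with DESeq2.

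**Figure D2:**
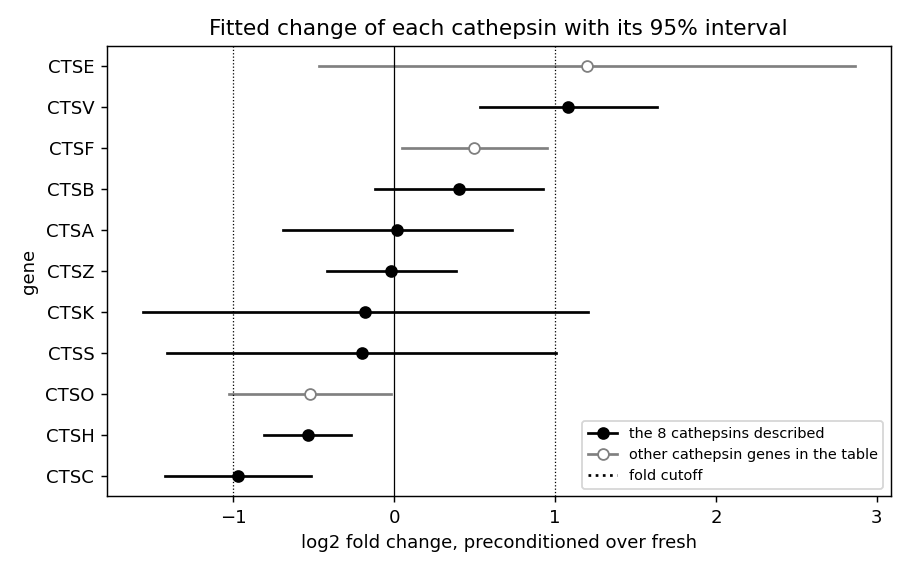
Fitted log2 fold change of the preconditioned over the fresh group for the 8 cathepsins (filled) and the 3 other cathepsin genes of the table (open), with 95% intervals from the edgeR fit and dotted lines at the fold cutoff of 1. Among the 8 genes, the intervals of CTSV, CTSC and CTSH lie on one side of 0, and those of CTSK and CTSS are the widest.

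Ratios of CTSV to other cathepsins were taken within each library, where the scaling between libraries plays no part. The pairs were chosen after the values had been seen, so that the separation of the groups follows from the choice and the ratios are a description, and a ratio does not show which of its genes differed. The FPKM of CTSV was 10.6, 10.6 and 16.7 times that of CTSC in fresh replicates 1, 2 and 3, and 35.0, 66.1 and 56.0 times in preconditioned replicates 1, 2 and 3. The mean ratio was 12.6 ± 3.53 in fresh and 52.4 ± 15.9 in preconditioned libraries (SD, n = 3 each). Against CTSH, CTSV stood at 17.0 to 27.2 times in the fresh libraries and 52.1 to 90.2 times in the preconditioned libraries. Against CTSB the fresh libraries were nearly equal, at 7.41, 7.69 and 7.58, and the preconditioned libraries were at 14.2, 13.5 and 9.16. Preconditioned replicate 3 was the nearest of its group to the fresh libraries in the ratios to CTSH and CTSB, and preconditioned replicate 1 in the ratio to CTSC.

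**Figure D3:**
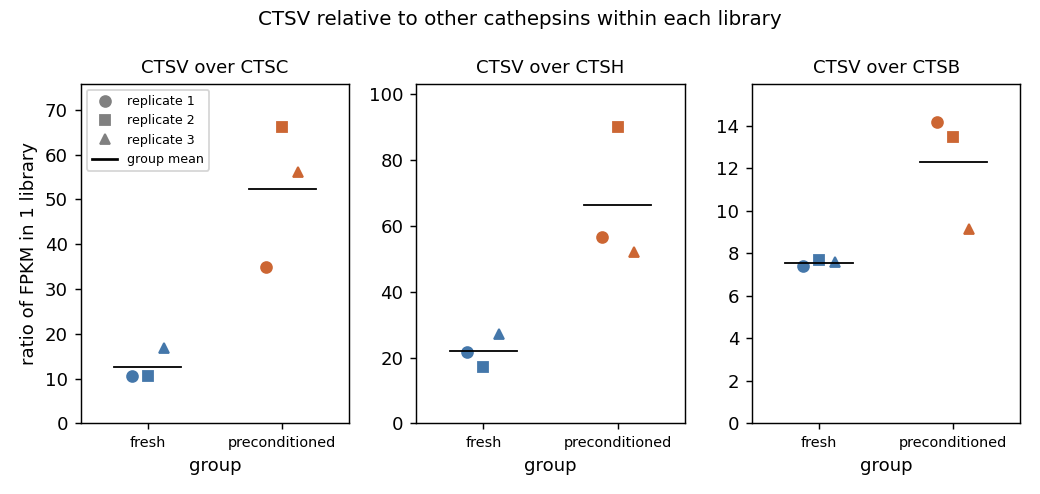
Ratio of the FPKM of CTSV to that of CTSC, CTSH and CTSB within each library, by group, on linear axes from 0, with bars at the group means. All preconditioned libraries lie above all fresh libraries in the 3 panels, by the smallest margin over CTSB.

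CTSB, CTSA and CTSZ did not pass the test. CTSB, the endopeptidase and dipeptidyl carboxypeptidase that is the second most abundant member, had 450, 406 and 537 CPM in fresh replicates 1, 2 and 3 and 427, 753 and 665 CPM in preconditioned replicates 1, 2 and 3. Preconditioned replicate 1 fell within the fresh range and the other preconditioned libraries above it. The log2 fold change was 0.40 (standard error 0.22, 95% interval −0.12 to 0.93, adjusted p = 0.26 by edgeR). Without preconditioned replicate 1 it was 0.60 with an adjusted p of 0.030, still under the fold cutoff, and the adjusted p was 0.030 to 0.59 over all alternatives.

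CTSA is a serine carboxypeptidase that also shields the lysosomal enzymes β-galactosidase (GLB1) and neuraminidase (NEU1) from degradation. It had 167, 162 and 251 CPM in fresh replicates 1, 2 and 3 and 119, 227 and 242 CPM in preconditioned replicates 1, 2 and 3. The groups overlapped over most of their range, and the log2 fold change of 0.02 (95% interval −0.69 to 0.73, adjusted p = 0.97) took either sign under other settings. Its partner GLB1 had 71.5 ± 5.67 and 88.1 ± 15.0 CPM (SD, n = 3 each, adjusted p = 0.21), and NEU1 was nearly silent at 0.833 ± 1.13 and 0.437 ± 0.165 CPM (SD, n = 3 each).

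CTSZ, a carboxypeptidase also called cathepsin X, had nearly equal means in the groups, 61.9 ± 10.8 and 61.2 ± 9.25 CPM (SD, n = 3 each). It had 50.6, 63.0 and 72.1 CPM in fresh replicates 1, 2 and 3 and 61.5, 70.3 and 51.9 CPM in preconditioned replicates 1, 2 and 3. Both groups spanned nearly the same range. The log2 fold change was −0.02, and its 95% interval of −0.42 to 0.38 did not reach the fold cutoff in either direction (adjusted p = 0.96 by edgeR).

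CTSK and CTSS varied most between libraries of the same group. The SD of log2 CPM within groups was 0.88 for CTSK and 0.85 for CTSS, above 91.6% and 90.9% of all tested genes, whereas it was 0.12 for CTSH, and its median was 0.27 over all tested genes. CTSK, the collagen-cutting cathepsin of bone-resorbing osteoclasts, had 45.4, 41.0 and 82.8 CPM in fresh replicates 1, 2 and 3 and 23.1, 97.6 and 28.7 CPM in preconditioned replicates 1, 2 and 3. Preconditioned replicate 2 was the highest of all libraries and the other preconditioned libraries were the lowest. The log2 fold change was −0.18 with a 95% interval of −1.56 to 1.20 (adjusted p = 0.86 by edgeR), so that a 2-fold difference in either direction lay within it.

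Of the 11 stromal fibroblast markers, 6 were highest in preconditioned replicate 2, as CTSK was, and for 3 of these (DCN, LUM and COL3A1) fresh replicate 3 came next, again as for CTSK. The other 5 (COL1A2, KERA, PDGFRB, THY1 and POSTN) were highest elsewhere. DCN and LUM are given here after their values were seen, because they share the 2 highest libraries of CTSK, and the order of the other libraries differed. DCN, the collagen-binding proteoglycan decorin, had 85.8, 88.6 and 142 CPM in fresh replicates 1, 2 and 3 and 43.3, 208 and 38.3 CPM in preconditioned replicates 1, 2 and 3. LUM, the corneal proteoglycan lumican, had 40.4, 31.3 and 53.3 CPM in the former and 32.6, 113 and 23.6 CPM in the latter. COL1A1 was also highest in preconditioned replicate 2 but stood higher in all preconditioned libraries, with 56.8 to 109 CPM in fresh and 505 to 693 CPM in preconditioned libraries, and it was the only gene called among the 11 fibroblast markers (9.09%, beside 2.29% of all tested genes). The part of stromal cells in the level of CTSK was not tested.

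CTSS, the cathepsin that trims the invariant chain of class II antigen presentation in immune cells, was the least abundant member. It had 14.7, 28.7 and 17.7 CPM in fresh replicates 1, 2 and 3 and 20.2, 26.6 and 6.32 CPM in preconditioned replicates 1, 2 and 3. Its lowest library was preconditioned replicate 3 and its highest fresh replicate 2, and the groups overlapped. The log2 fold change was −0.20 with a 95% interval of −1.41 to 1.01 (adjusted p = 0.82 by edgeR). The leukocyte markers differed widely in level. CD68, a lysosomal protein of macrophages that carried much of their summed level, had 93.4 to 129 CPM in fresh libraries and 121, 299.6 and 288 CPM in preconditioned replicates 1, 2 and 3 (log2 fold change 1.14, adjusted p = 0.085 by edgeR), and LAPTM5 had 50.1 to 84.6 and 25.9 to 63.6 CPM. PTPRC (CD45) was low, at 0.197 to 0.493 CPM in fresh libraries and 0.274, 1.50 and 0.296 CPM in preconditioned replicates 1, 2 and 3. So was CSF1R, the receptor of macrophage growth factors, at 1.30 to 1.60 and at 0.669, 4.73 and 1.32 CPM. MRC1 had 6.83 ± 1.50 CPM in fresh and 18.7 ± 21.4 CPM in preconditioned libraries, and CD14 5.70 ± 1.85 and 5.79 ± 4.91 CPM (SD, n = 3 each). Of the 11 leukocyte markers, 10 were highest in preconditioned replicate 2, all but LAPTM5, whereas CTSS was highest in fresh replicate 2. None of the 11 was called by edgeR, with 1 at an unadjusted p under 0.05 (30.6% of all tested genes were) and 1 called by DESeq2, and their part in the level of CTSS was not tested.

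**Figure D4:**
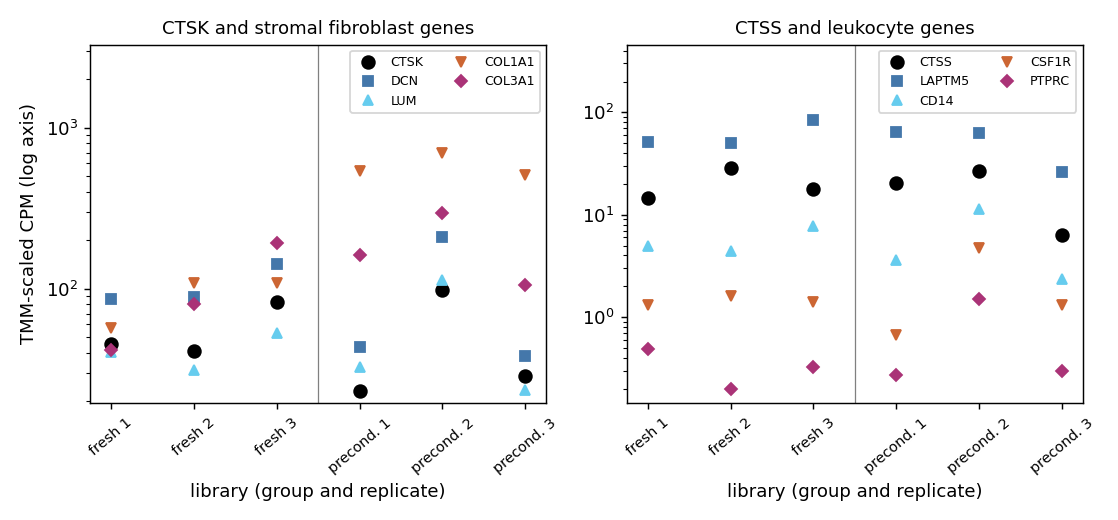
CTSK beside stromal fibroblast genes and CTSS beside leukocyte genes in each of the 6 libraries, as TMM-scaled CPM on log axes. CTSK is highest in preconditioned replicate 2, as are 6 of the 11 fibroblast markers of the full list, and CTSS is highest in fresh replicate 2, as is none of the 11 leukocyte markers.

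Among the cathepsins outside the list of 10, CTSF had 45.9, 51.3 and 48.6 CPM in fresh replicates 1, 2 and 3 and 50.3, 85.9 and 69.8 CPM in preconditioned replicates 1, 2 and 3 (log2 fold change 0.50, adjusted p = 0.13 by edgeR). CTSO had 21.2 ± 3.56 and 14.8 ± 3.40 CPM (SD, n = 3 each; log2 fold change −0.52, adjusted p = 0.15 by edgeR). CTSE, an aspartic peptidase, had 1.07 to 1.41 CPM in fresh libraries and 0.761, 5.95 and 1.71 CPM in preconditioned replicates 1, 2 and 3. None of these 3 genes was called by edgeR, none had an adjusted p of 0.05 or less, and the groups overlapped for all 3.

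Genes that act on or with cathepsins were then described in 7 lists. Of their 98 tested genes, 1 was called, RRAGD, beside 2.29% of all tested genes, and 5 (5.10%) had an adjusted p of 0.05 or less without a fold cutoff, beside 5.08%. The groups did not overlap for 40 genes (40.8%), beside 36.7%. The median log2 fold change of the 98 genes was 0.24, against 0.01 for all tested genes and −0.10 for the 8 cathepsins. With library size alone as the scaling, the median of all tested genes moved to −0.16, and list medians moved with it, to −0.28 for the cathepsins. RRAGD, a small GTPase that relays nutrient signals at the lysosome, had 11.7, 11.5 and 16.5 CPM in fresh replicates 1, 2 and 3 and 23.9, 45.5 and 31.4 CPM in preconditioned replicates 1, 2 and 3. Its log2 fold change was 1.34 (standard error 0.27, adjusted p = 0.043 by edgeR). The call was lost when any single library other than preconditioned replicate 1 was left out, in the blocked fit and in both limma fits.

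The vacuolar proton pump, which acidifies the lysosome and so permits cathepsin activation, had the highest median of the 7 lists, 0.44 (0.27 with library size alone). Of its 16 subunits, 15 had positive log2 fold changes, and 13 with library size alone. The groups did not overlap for 13 (81.3%, beside 36.7% of all tested genes), 12 of them higher in the preconditioned group. None was called by edgeR or DESeq2, since all lay under the fold cutoff, while 13 had an unadjusted p under 0.05 (81.3%, beside 30.6% of all tested genes). An adjusted p of 0.05 or less was reached by 3 subunits (18.8%, beside 5.08% of all tested genes). These were ATP6V0E1 (log2 fold change 0.77, adjusted p = 0.042 from edgeR), ATP6V1E1 (0.70, adjusted p = 0.042) and ATP6V1F (0.69, adjusted p = 0.041). ATP6V0E1 had 173, 180 and 202 CPM in fresh replicates 1, 2 and 3 and 259, 371 and 317 CPM in preconditioned replicates 1, 2 and 3. ATP6AP2 had a log2 fold change of 0.76 with an adjusted p of 0.071 by edgeR, and the lowest values were −0.41 for ATP6V1B2 and 0.09 for ATP6V0A2. The summed level of the 16 subunits was 2249 to 2479 CPM in fresh libraries and 2976, 3923 and 3390 CPM in preconditioned replicates 1, 2 and 3. The 11 leukocyte markers summed to 194, 445 and 335 CPM in the same preconditioned libraries, and the 11 fibroblast markers to 1353, 2359 and 1316 CPM. Much of the leukocyte sum was CD68, itself a lysosomal protein, with a mean of 236 CPM in the preconditioned group, against 0.691 CPM for PTPRC. The part of leukocytes and fibroblasts in the level of the pump was not tested.

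Of the 16 genes of lysosomal gene regulation, 12 had positive log2 fold changes (median 0.32), and 9 with library size alone (median 0.15). Fresh and preconditioned libraries were fully separated for 10 of the 16 genes (62.5%, beside 36.7% of all tested genes), with 7 higher after preconditioning and 3 lower. The 5 subunits of the Ragulator complex (LAMTOR1 to LAMTOR5), which anchors nutrient sensing at the lysosome, were among the 7 and the lower genes were RRAGA, MITF and ZKSCAN3. LAMTOR5 had an adjusted p of 0.031 from edgeR at a log2 fold change of 0.73. TFEB and TFE3, transcription factors that drive lysosomal genes, did not pass the test. TFEB had 11.5 ± 0.822 and 11.9 ± 1.29 CPM with overlapping groups, and TFE3 had 68.7 ± 4.57 and 79.7 ± 7.34 CPM without overlap (SD, n = 3 each), with adjusted p values of 0.87 and 0.24 by edgeR. MITF and ZKSCAN3, with the lowest values of the list, had log2 fold changes of −0.61 and −0.41 (adjusted p = 0.20 and 0.12), and TFEC, one of the highest, had 0.91 at under 1 CPM in the mean of either group.

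CST3 and CSTB were the most abundant of the 5 tested transcripts of cathepsin inhibitors. CST3, the secreted inhibitor cystatin C, had 506, 343 and 589 CPM in fresh replicates 1, 2 and 3 and 621, 673 and 715 CPM in preconditioned replicates 1, 2 and 3. CSTB, the inhibitor of the cytosol, had 257 ± 30.1 and 320 ± 14.8 CPM (SD, n = 3 each). The groups overlapped for neither gene, with log2 fold changes of 0.48 and 0.31 (adjusted p = 0.16 and 0.14 from edgeR). Such separation was seen in 2 of the 5 tested inhibitors (40%), near the 36.7% seen over all tested genes. None of the 5 tested inhibitors was called by edgeR or DESeq2, and 2 had an unadjusted p under 0.05, beside 30.6% of all tested genes. The lowest log2 fold changes of the list were −0.18 for SERPINB13 and −0.03 for CSTA, and CST6 had 0.32. The summed FPKM of the 7 cysteine cathepsins of the list, without CTSF and CTSO, was set against that of CST3, CST6, CSTA and CSTB together. It was 1.60, 1.91 and 1.67 times as high in fresh replicates 1, 2 and 3, and 1.97, 3.23 and 1.94 times in preconditioned replicates 1, 2 and 3. Every preconditioned library lay above every fresh library, by a small margin except in preconditioned replicate 2, where CTSV was highest. CTSV made up most of the cathepsin sum, so the ratio is a description of CTSV more than of the family. Without CTSV, the summed FPKM of the family was 639 to 738 in fresh and 460 to 673 in preconditioned libraries.

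The lists of sorting factors, membrane proteins, other peptidases and other hydrolases held no called gene by edgeR or DESeq2. At an unadjusted p under 0.05 were 2 of 10, 8 of 16, 3 of 9 and 5 of 26 tested genes, in that order, beside 30.6% of all tested genes. For mannose 6-phosphate tagging and sorting the median log2 fold change was 0.02, and −0.15 with library size alone, with values from −0.55 for GGA3 and −0.18 for IGF2R, the larger receptor, to 0.30 for GGA1 and 0.37 for NAGPA. Lysosomal membrane proteins had a median of 0.26 (0.09 with library size alone) and ranged from −0.57 for TMEM192 and −0.55 for CLCN7 to 0.94 for NPC1, the cholesterol exporter, and 1.22 for CD63. The CD63 value rested on preconditioned replicate 2, with 6.63, 28.5 and 8.20 CPM in preconditioned replicates 1, 2 and 3 against 5.26 to 7.88 CPM in fresh libraries, and was 0.26 without that library. The other lysosomal peptidases had a median of 0.40 (0.23 with library size alone). Their highest values were 1.29 for NAPSA, at under 1 CPM, and 1.20 for CTSE, which was 0.02 without preconditioned replicate 2, their lowest −0.52 for CTSO and −0.06 for PRCP, and LGMN, which processes cathepsins, had 121 ± 11.6 and 155 ± 32.8 CPM (SD, n = 3 each, adjusted p = 0.21). Lysosomal glycosidases, sulfatases and lipases had a median of 0.14, which turned to −0.03 with library size alone, and ranged from −0.93 for NEU1 and −0.71 for LIPA to 0.85 for ASAH1. The NEU1 value rested on fresh replicate 2, with 0.116, 2.14 and 0.246 CPM in fresh replicates 1, 2 and 3, and turned to 1.24 without that library.

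**Figure D5:**
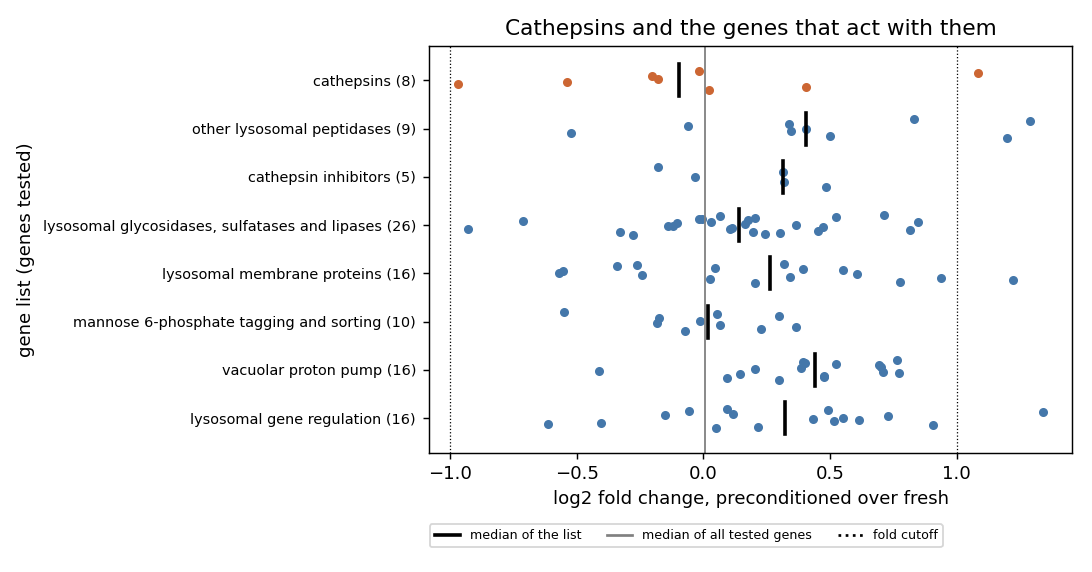
Log2 fold change of the preconditioned over the fresh group for every tested gene of the cathepsins and of 7 lists of genes that act with them, with the median of each list as a black bar and the median of all 15029 tested genes as a grey line. The proton pump has the highest median of the 7 pathway lists, and the cathepsins spread from −0.97 to 1.08 around a median of −0.10.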

How the data were processed

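RNA-seq was performed by the authors on 6 libraries, 3 per group, assigned from the sample titles. The authors aligned reads with hisat2 and deposited raw counts per gene from htseq-count, and the deposited FPKM equal each count divided by the library total and 1 length per gene. The genome build, annotation and strand setting are not given in the sources used here, so overlapping or near-identical genes could share reads.

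Differential expression was tested on these counts with edgeR 4.0.16 under R 4.3.3 (filterByExpr, TMM, robust quasi-likelihood test, condition as the only factor), with Benjamini-Hochberg adjustment over all 15029 tested genes. Standard errors came from the F statistic. Alternatives were DESeq2 1.42.0, limma 3.58.1 on log2(FPKM + 1) and log2(FPKM + 0.1), other scalings and filters, the replicate number as a block, and leaving out each library. The fits were tested on simulated counts. Libraries within a group differed beyond sampling noise (chi-square per degree of freedom 48.1 to 147). Nothing states that they came from separate animals, so p values measure only the spread between these samples, which may be technical. At this depth the spread between libraries limits the precision.

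The cathepsins and lists were chosen with earlier results of these data known. Named genes were all cathepsins, every called gene of a pathway list, the 2 highest and 2 lowest log2 fold changes of each list, and any cell type marker. A value that this rule selects is not reported here. CSTB, the LAMTOR genes, RRAGA, TFEB, TFE3, GLB1, LGMN, ATP6V1E1 and ATP6V1F were named after their values were seen. No sequence is printed, as the reference tables used here hold none.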

Additional observations from a re-analysis of the deposited data

How the results depend on the processing

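Of 112 alternative values of the 8 members' log2 fold changes, 84 kept their direction and their combined call, 9 lost the call (all of CTSV), 4 gained it (all of CTSC) and 15 changed sign, none of the latter in a called gene. Among the 84, the adjusted p rose above 0.05 in 12 (6 each of CTSC and CTSH: the replicate block and 5 omissions of a single library) and dropped below it in 1 (CTSB without preconditioned replicate 1). CTSA turned to −0.15 with library size alone, −0.017 with the replicate block, and −0.18 and −0.19 in the limma fits with pseudocounts of 1 and 0.1. Leaving out single libraries gave values from −0.16 to 0.27 for CTSA, −1.12 to 0.20 for CTSK, −0.62 to 0.20 for CTSS and −0.14 to 0.11 for CTSZ.

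The number of called cathepsins was 0 with the replicate block, 3 without a fold cutoff and 0 to 2 when each library was left out. It stayed at 1 with library size alone and in both limma fits, but the gene was then CTSC in place of CTSV. These settings share their scaling, since the FPKM also use the library total without TMM factors. The factors had means of 1.06 in fresh and 0.943 in preconditioned libraries. In the pathway lists, 0 genes were called with the block and in both limma fits, 5 without a fold cutoff, and 0 to 4 without single libraries. Over all tested genes, 344 were called, and 1190 with DESeq2, 565 with library size alone (142 higher, 423 lower, against 163 and 181), 30 with the block, 257 (75 higher, 182 lower) and 521 (123 higher, 398 lower) in limma on log2(FPKM + 1) and log2(FPKM + 0.1), 763 without a fold cutoff, and 14 to 1546 without single libraries, the most without preconditioned replicate 1. Except where fewer samples or the dropped cutoff is the difference itself, the cause was not tested. Libraries of the same replicate number did not deviate together (correlations of −0.11 to −0.07 across genes), so the numbers were not taken to pair them. The summed level of the cathepsins, 0.78 as a log2 ratio, ranged from 0.52 to 0.92 over all its alternatives.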
